A study of Mus musculus with 42 samples.

Results

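Olfr287 and Olfr288 are a pair of neighbouring olfactory receptor genes of the mouse with almost the same coding sequence, and they are 2 of the 1170 genes with an olfactory receptor symbol among the 44674 genes of the count table. The pair was chosen by measured values, the raised pulldown-to-input ratios under the food odours in these same data. The odour contrasts of the pair are therefore given as a description, with fitted values and standard errors (SE) and no test. Both genes passed the filter on low counts, as did 908 of the 1170 receptors.

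Each mature olfactory sensory neuron expresses a single olfactory receptor gene, a G protein-coupled receptor that sits in the cilia and starts a cyclic AMP cascade when an odorant binds. Neuronal activity leads to phosphorylation of the ribosomal protein S6, so an antibody against phosphorylated S6 pulls down ribosomes, and with them the messenger RNA, of cells that were recently active. A receptor gene whose messenger RNA is richer in the pulldown than in the whole tissue marks neurons that carry phosphorylated S6.

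RNA came from the olfactory epithelium of male C57BL/6NCrl mice aged 8 to 12 weeks, to compare which receptors respond to the odours of different diets. Every pool joined 4 epithelia and gave 2 libraries, a pulldown (Ribo) and an input of the whole lysate, so that 21 pools gave 42 libraries. The groups were No Odour (5 pools), NCD, the odour of normal chow (6 pools), Bacon, the odour of an isonutritional bacon-flavoured diet (5 pools), and HFD, the odour of a lard-based high-fat diet (5 pools). Odour exposure lasted 1 h. Because animals were pooled, the values carry no information on single mice, and in such bulk samples fewer cells with a receptor and less RNA per cell cannot be told apart.

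Pulldown libraries held 25392812 to 36738330 counts and input libraries 24839555 to 36781553. For Olfr287 this gave 488 to 2073 estimated counts in a pulldown library and 329.8 to 698 in an input library. For Olfr288 it gave 86.0 to 334 counts in a pulldown library and 76.2 to 143 in an input library, so its relative counting error was larger. The labelled tissue matched its markers: 6 genes of mature sensory neurons summed to 13528 CPM (estimated counts per 1000000 counts of the library) in No Odour input, with Omp, a protein of mature sensory neurons, the most abundant at 6269.6 CPM. In the same libraries the summed CPM of the other marker lists was 4670.1 for supporting cells, 1537 for Bowman's gland, 478 for immature neurons, 388 for erythroid cells, 58.7 for horizontal basal cells, 57.8 for microvillous cells, 37.4 for neutrophils and 35.0 for macrophages.

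The genes lie on the minus strand of chromosome 15 in build GRCm38. Olfr287 (ENSMUSG00000090129) spans chr15:98206971-98221056 and Olfr288 (ENSMUSG00000075427) spans chr15:98186013-98195542, with no other receptor gene between them. Olfr286 (ENSMUSG00000059460), the next receptor on the other side of Olfr287, spans chr15:98224308-98234450. The coding sequences of the pair, 966 bases for Olfr287 and 954 for Olfr288, were identical at 926 of 951 aligned bases (97.4%). Olfr286 matched the coding sequence of Olfr287 at 94.1% and that of Olfr288 at 92.1%. Amino acids were not compared, as no protein table was available.

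**Figure D1:**
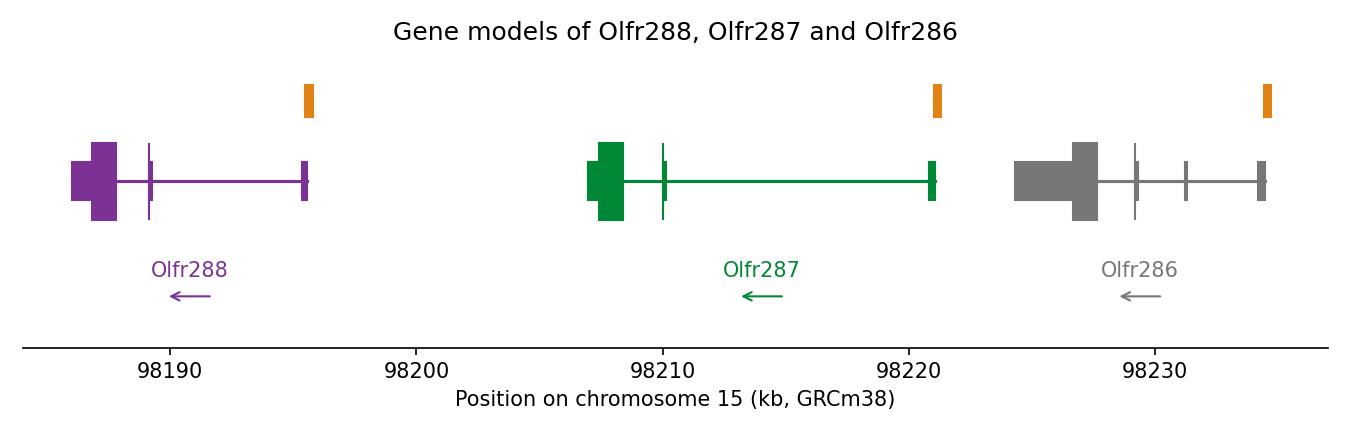
Gene models of Olfr288, Olfr287 and Olfr286 along chromosome 15 (horizontal axis, kb, GRCm38), with low boxes for exons, tall boxes for coding bases, arrows for the direction of transcription and orange boxes for the 300-base promoter windows. The coding bases of all 3 genes lie in a long last exon and the last 5 bases of an earlier exon.

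The differences between the pair are not spread evenly. A run of 668 bases, coding bases 30 to 697 of Olfr287, is identical in both genes, and all 25 substitutions lie after it. Olfr288 has 3 extra coding bases near its start and Olfr287 has 15 extra at its end. The stretch below covers coding bases 661 to 810 of Olfr287 and 664 to 813 of Olfr288 from the annotated transcripts, with the 16 bases that differ in capitals. It is shown because a read tells these receptors apart only if it or its mate reaches such bases or the exons outside the coding sequence.
Olfr287: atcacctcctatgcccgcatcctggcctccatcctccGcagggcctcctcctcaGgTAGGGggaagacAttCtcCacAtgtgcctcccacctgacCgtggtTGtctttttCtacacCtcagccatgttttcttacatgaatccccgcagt
Olfr288: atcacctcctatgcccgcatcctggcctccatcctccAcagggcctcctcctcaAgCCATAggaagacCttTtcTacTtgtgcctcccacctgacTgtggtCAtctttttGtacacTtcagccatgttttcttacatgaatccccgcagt

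This likeness bears on every value of the pair. Of the 31-base words in the transcripts of Olfr287, 30.4% also occur in Olfr288 and 16.0% in Olfr286, and 0.293% occur in a gene outside this group and Gm44579. Of those of Olfr288, 32.6% occur in Olfr287, 16.5% in Olfr286 and 0.591% in a gene outside the group. Reads were sequenced in pairs, and windows of a single read leave out what its mate can tell. At the read length of 75 bases, 22.7% of the windows of Olfr287 are found whole in Olfr288, and 25.2% of those of Olfr288 in Olfr287. Estimation shared such reads between the genes, and none of the 42 libraries has a count within 0.0005 of a whole number for either gene. Levels of both genes are uncertain to the extent that shared reads went to the wrong one, and this weighs more on Olfr288, the scarcer gene. Gm44579, a gene model that joins the first exons of Olfr287 to the coding exon of Olfr288, holds 35.9% of the 31-base words of Olfr287 and 74.1% of those of Olfr288, the largest overlap of either gene. Gm44579 has no entry in the count table, so no counts were given to it there. What its transcripts, if present, added to the counts of the pair was not tested.

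Olfr287 was among the most abundant receptors of the epithelium. Per kb of exon its mean level in input was 5.55 CPM per kb without odour (rank 15 of 1170 receptors), 5.99 under NCD (rank 19), 7.26 under Bacon (rank 14) and 7.47 under HFD (rank 14). Olfr288 stood at 1.20 CPM per kb without odour (rank 135), 1.24 under NCD (rank 163), 1.53 under Bacon (rank 132) and 1.62 under HFD (rank 122). The median receptor was at 0.210 CPM per kb in No Odour input. Both members thus lay above the middle of the family, Olfr287 several times higher than Olfr288 in every input library (3.28 to 6.02 times per kb).

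In the pulldown without odour, Olfr287 was at 18.7, 19.5, 21.6, 33.1 and 32.9 CPM in pools 1, 2, 3, 4 and 6. Under NCD its pulldown level was 34.6 CPM at the lowest, 37.6 at the median and 44.1 at the highest of 6 pools. Under Bacon it was 36.8, 51.4, 51.1, 43.9 and 56.2 CPM in pools 1 to 5. On this scale of library totals all 11 of these odour pools lay above every No Odour pool, and pools 4 and 6 were the high ones within No Odour. Under HFD the pulldown level of Olfr287 was 48.7, 56.4, 54.0, 46.2 and 43.2 CPM in pools 1, 2, 3, 5 and 6, again above every No Odour pool. The mean pulldown levels ran from 25.2 ± 7.25 CPM (SD, n = 5) in No Odour through 38.9 ± 4.09 (n = 6) in NCD and 47.9 ± 7.61 (n = 5) in Bacon to 49.7 ± 5.45 (n = 5) in HFD. With TMM scaling, a factor per library that corrects for differences in composition, 5 of 6 NCD pools, 4 of 5 Bacon pools and 5 of 5 HFD pools of Olfr287 lay above every No Odour pool, and the ranges of NCD and Bacon overlapped that of No Odour. Bacon and HFD, neighbours in the order of means, did not differ beyond their spread on either scale. NCD overlapped Bacon on both scales and HFD on that of library totals, while with TMM scaling, and as a share of receptor counts, 5 of 5 HFD pools lay above all of NCD.

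Olfr288 in the pulldown was at 4.01, 3.39, 4.51, 5.28 and 4.62 CPM in the No Odour pools 1, 2, 3, 4 and 6. Under NCD its pulldown level ran from 6.34 CPM through a median of 8.85 to 9.64. Every NCD pool lay above every No Odour pool. Under Bacon the pulldown level of Olfr288 was 7.98, 9.35, 8.94, 7.77 and 7.87 CPM in pools 1 to 5. Under HFD it was 8.41, 9.08, 8.97, 8.70 and 6.69 CPM in pools 1, 2, 3, 5 and 6. These pools were also above all of No Odour, pool 6 of HFD being the lowest of them. The mean levels were 4.36 ± 0.708 CPM (SD, n = 5) in No Odour, 8.35 ± 1.33 (n = 6) in NCD, 8.38 ± 0.716 (n = 5) in Bacon and 8.37 ± 0.975 (n = 5) in HFD, and the 3 odours did not differ beyond their spread.

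In input, Olfr287 was at 13.4, 10.5, 14.2, 15.6 and 21.4 CPM in the No Odour pools 1, 2, 3, 4 and 6. Its input level was 14.8 CPM at the lowest, 16.0 at the median and 17.4 at the highest under NCD. It was 20.6, 20.6, 19.5, 18.6 and 19.0 CPM in the Bacon pools 1 to 5. The No Odour pools spread widely around the NCD pools, pool 6 alone exceeding all of NCD and Bacon, while the Bacon pools lay above all of NCD on this scale and with TMM scaling. The HFD pools 1, 2, 3, 5 and 6 were at 19.5, 21.4, 21.02, 22.2 and 17.0 CPM, which overlapped every other group on this scale of library totals, while with TMM scaling 5 of 5 HFD pools lay above all of NCD. As a share of receptor counts, the input values of Olfr287 under Bacon and HFD overlapped those under NCD, with 2 of 5 and 3 of 5 pools above.

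For Olfr288 the input values were 2.47, 2.71, 4.12, 2.71 and 3.45 CPM in the No Odour pools 1, 2, 3, 4 and 6. They ran from 2.87 CPM through a median of 3.10 to 3.60 under NCD. No Odour pool 3 lay above all of NCD. The Bacon pools 1 to 5 were at 4.48, 3.24, 4.39, 3.94 and 3.62 CPM, and the HFD pools 1, 2, 3, 5 and 6 at 4.20, 4.10, 4.15, 3.79 and 4.61. On this scale HFD lay above NCD in every pool, with TMM scaling in 4 of 5 pools and as a share of receptor counts in 3 of 5, and both Bacon and HFD overlapped No Odour on each scale.

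**Figure D2:**
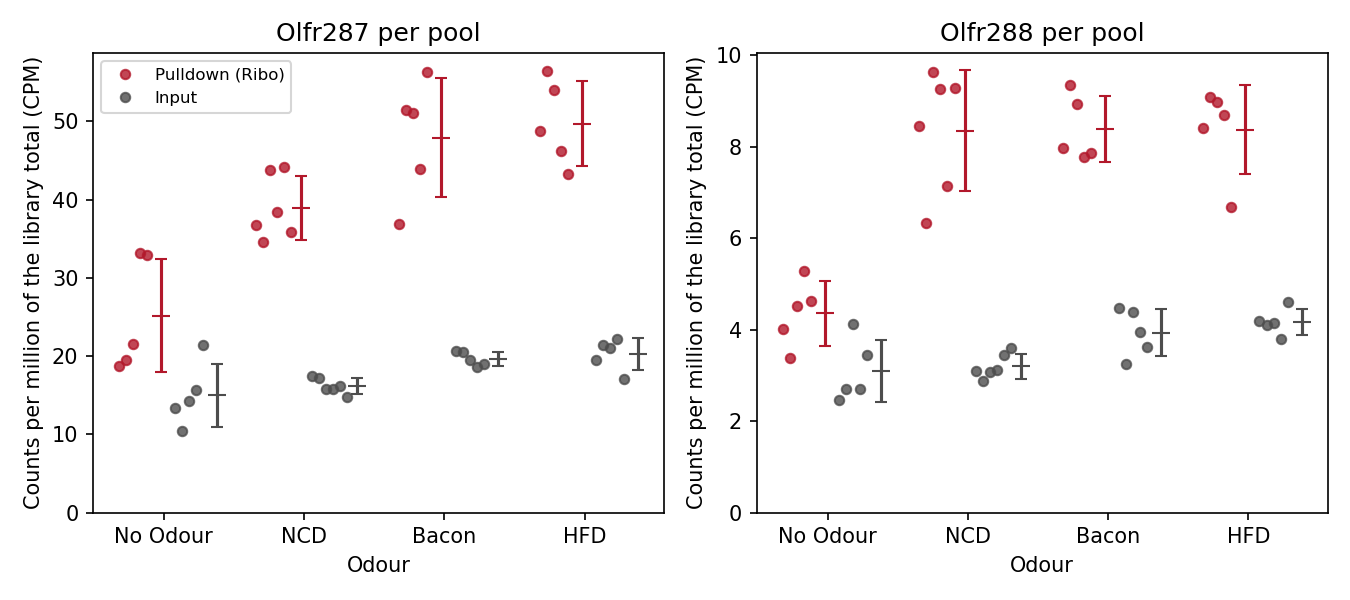
Level of Olfr287 (left) and Olfr288 (right) in each pool by odour, as CPM of the library total, in the pulldown (red) and the input (grey); each point is 1 library, and bars give the mean and SD. All pulldown points under an odour lie above the No Odour points, from 34.6 CPM for Olfr287 and 6.34 CPM for Olfr288, while the input points of No Odour overlap those of every odour.

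The pulldown-to-input ratio was taken within each pool, on levels scaled by TMM, with a prior count of 2. For Olfr287 the log2 ratio was 0.51, 0.82, 0.60, 0.86 and 0.53 in the No Odour pools 1, 2, 3, 4 and 6. Under NCD it was 1.04 at the lowest, 1.37 at the median and 1.55 at the highest. Pools 2 and 4 were the high ones of No Odour, and no NCD pool reached down to them. Under Bacon the log2 ratio of Olfr287 was 0.94, 1.56, 1.59, 1.34 and 1.68 in pools 1 to 5, and under HFD it was 1.33, 1.48, 1.40, 1.16 and 1.34 in pools 1, 2, 3, 5 and 6. Bacon pool 1 was the low one of all 16 odour pools, yet above the highest No Odour pool. This separation depended on the scaling: by library totals, No Odour pool 4 was at 1.08, above NCD pools 1 (1.07) and 2 (1.00), Bacon pool 1 (0.83) and HFD pool 5 (1.06), so that No Odour overlapped each odour.

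For Olfr288 the log2 ratio was 0.72, 0.25, 0.13, 0.73 and 0.32 in the No Odour pools 1, 2, 3, 4 and 6. Under NCD it ran from 1.07 through a median of 1.52 to 1.71. The No Odour and NCD pools did not overlap. Under Bacon it was 0.93, 1.75, 1.22, 1.08 and 1.22 in pools 1 to 5, and under HFD it was 1.00, 1.22, 1.14, 1.29 and 0.53 in pools 1, 2, 3, 5 and 6. Pool 6 of HFD fell among the No Odour pools, with the highest input and the lowest pulldown level of Olfr288 in its group. Scaled by library totals, Bacon pool 1 (0.82) also lay below the highest No Odour pool of Olfr288, pool 4 (0.95).

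**Figure D3:**
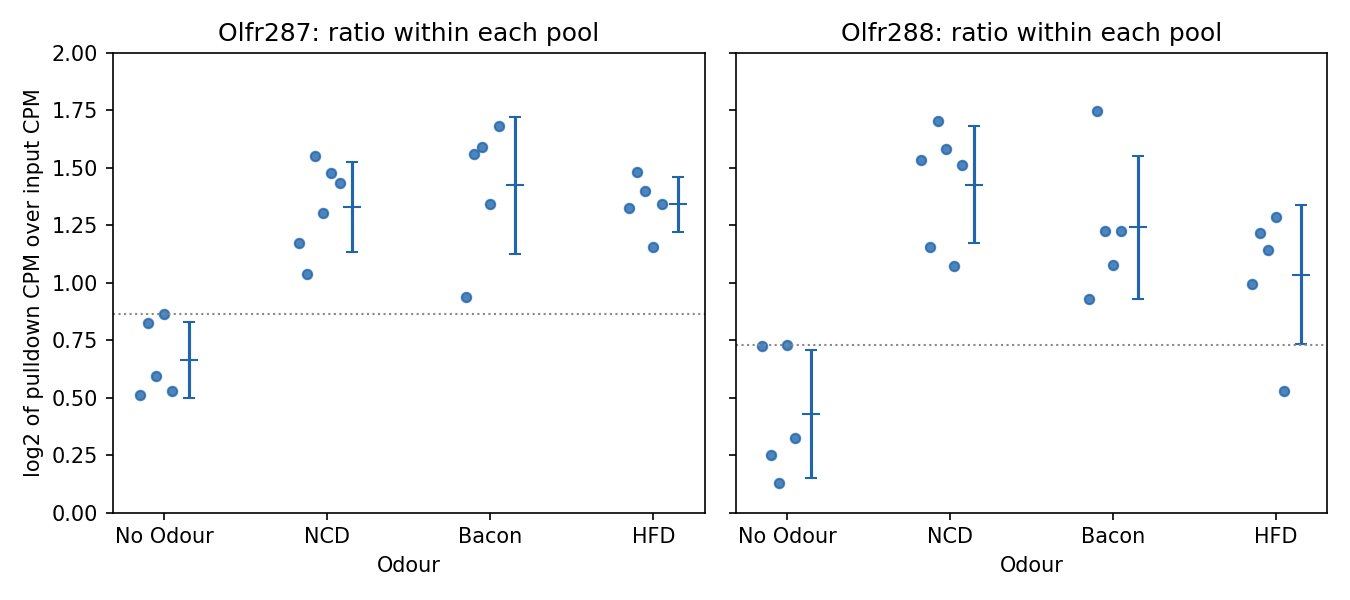
log2 of the pulldown level over the input level of the same pool, by odour, for Olfr287 (left) and Olfr288 (right), with TMM scaling and a prior count of 2; points are pools, bars give the mean and SD, and the dotted line is the highest No Odour pool. All 16 odour pools lie above that line for Olfr287, and for Olfr288 all but HFD pool 6, at 0.53; with library totals in place of TMM, 4 odour pools of Olfr287 and 2 of Olfr288 lie below the highest No Odour pool.

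Fitted over all pools, the ratio of Olfr287 was higher than without odour by a log2 fold change of 0.67 (SE 0.12) under NCD, 0.76 (SE 0.12) under Bacon and 0.68 (SE 0.12) under HFD, or 1.59, 1.70 and 1.60 times. For Olfr288 the log2 fold changes were 1.01 (SE 0.18), 0.82 (SE 0.18) and 0.62 (SE 0.18), or 2.02, 1.76 and 1.53 times. Both genes thus had higher ratios under each odour, in an even profile for Olfr287. For Olfr288 the fitted values fell in the order NCD, Bacon, HFD, in steps of -0.20 (SE 0.17) and -0.20 (SE 0.18) that are close to their SE. These 3 contrasts share the No Odour pools, so a low value there raises all of them.

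At an adjusted p under 0.001 (edgeR, adjusted over the whole table of tested genes by the Benjamini-Hochberg method), 1.87% of the receptors tested were called higher under NCD, 3.74% under Bacon and 1.32% under HFD. Over all 21168 genes and both directions this threshold called 0.524%, 3.78% and 1.22%. As these contrasts chose Olfr287 and Olfr288, no call is given for them. The receptors tested had a median log2 fold change of 0.23 under NCD, 0.29 under Bacon and 0.27 under HFD, against which the values of Olfr287 and Olfr288 can be read.

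The share of the pair in all receptor counts removes what the family had in common. In the pulldown Olfr287 made up 0.928 ± 0.155% (SD, n = 5) of receptor counts without odour, 1.11 ± 0.0684% (n = 6) under NCD, 1.28 ± 0.107% (n = 5) under Bacon and 1.35 ± 0.0653% (n = 5) under HFD. For Olfr288 the pulldown shares were 0.163 ± 0.0176%, 0.240 ± 0.0415%, 0.226 ± 0.0249% and 0.227 ± 0.0172% of receptor counts in the same order. The shares of Olfr287 under Bacon and HFD lay above all No Odour pools, and those under NCD overlapped them, while for Olfr288 each odour lay above all No Odour pools. In input the mean share of Olfr287 was between 0.619% and 0.742% of receptor counts over the 4 groups (pools 0.565% to 0.831%), and that of Olfr288 between 0.122% and 0.155% (pools 0.108% to 0.194%).

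Several measures of the libraries moved with these ratios, and their part in the result was not tested. Ribosomal RNA took 23.1%, 23.1%, 20.9%, 16.8% and 11.6% of the pulldown counts in the No Odour pools 1, 2, 3, 4 and 6, and group means of 11.5% under NCD, 11.7% under Bacon and 10.5% under HFD. Olfr287 had its high No Odour pulldown levels in pools 4 and 6, the pools with the lowest ribosomal RNA share of that group. In input the ribosomal RNA share was 24.7 ± 3.62% (SD, n = 5) without odour against 14.2 ± 1.98% (n = 6), 10.6 ± 1.26% (n = 5) and 13.9 ± 3.60% (n = 5) under NCD, Bacon and HFD. With the ribosomal RNA share of each pulldown as a covariate, an alternative added after the data were seen, Olfr287 had log2 fold changes of 0.62 (SE 0.16), 0.71 (SE 0.16) and 0.62 (SE 0.17) and Olfr288 of 0.96 (SE 0.24), 0.77 (SE 0.24) and 0.56 (SE 0.26) under NCD, Bacon and HFD.

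Cell type markers moved as well. The 6 markers of mature sensory neurons summed to 13349.5, 13071, 13759, 17241 and 19299 pulldown CPM in the No Odour pools 1, 2, 3, 4 and 6, with 18112 to 22337 under NCD, 17692 to 22786 under Bacon and 17121 to 21476 under HFD, and Omp or Stoml3 was the most abundant. Pools 4 and 6 of No Odour were high in this sum and also in the pulldown level of Olfr287. The 4 macrophage markers, led by Csf1r, summed to 85.2, 84.9, 95.0, 76.2 and 77.0 pulldown CPM without odour and to 37.7 to 57.1 in the 16 odour pools. The 4 neutrophil markers summed to 141 to 159 pulldown CPM without odour, 89.1 to 117 under NCD, 83.8 to 159 under Bacon and 117 to 141 under HFD. For the 4 erythroid markers these sums were 1630 to 2138, 1866 to 2570, 1393 to 2734 and 2237 to 2506. In input the 4 markers of supporting cells summed to 3814 to 5538, 5906 to 6929, 5519 to 6528 and 5177 to 6509 CPM in the same order. In the ratio, where 0.524%, 3.78% and 1.22% of all genes were called under NCD, Bacon and HFD, 1 of 4 markers of Bowman's gland was called under each odour, and the median log2 fold change of the 4 was 0.027, -0.11 and 0.081 under NCD, Bacon and HFD. This marker, Bpifb5, rose by 1.91 (log2, SE 0.13, adjusted p = 1.64e-10 by edgeR, higher in 6 of 6 pools) under NCD, 1.97 (SE 0.13, adjusted p = 2.65e-10, 5 of 5 pools) under Bacon and 1.96 (SE 0.13, adjusted p = 2.03e-10, 5 of 5 pools) under HFD. Of 3 markers of microvillous cells, with medians of 0.35, 0.42 and 0.41, 1 was called under each odour. This marker, Ascl3, rose by 0.73 (SE 0.12, adjusted p = 0.000756, 6 of 6 pools), 0.79 (SE 0.13, adjusted p = 0.000178, 5 of 5 pools) and 0.90 (SE 0.13, adjusted p = 6.49e-05, 5 of 5 pools) under NCD, Bacon and HFD. The call on Ascl3 under NCD was kept in 8 of 21 fits without 1 pool and was lost with library totals, without the pool term, with a replicate block and with the ribosomal RNA covariate. In input Ascl3 fell by 0.50 under Bacon (SE 0.11, adjusted p = 0.000944, lower in 5 of 5 pools), and with library totals this value was -0.18 and no longer passed. In that input comparison, where 13.7% of all genes were called, Gap43 and Gng8, 2 of 4 markers of immature neurons, were also called lower. So was C1qb, 1 of 4 markers of macrophages. With library totals the calls on Gap43 (-0.12) and C1qb (-0.44) were lost and that on Gng8 was kept. The 4 gland markers, led by Muc5b, summed to mean pulldown levels of 3643, 3125, 3692 and 3719 CPM and the 3 microvillous markers, led by Foxi1 or Ascl3, to 63.3, 90.4, 80.5 and 105 CPM in No Odour, NCD, Bacon and HFD. No marker of these lists was at 0, and their part in the ratios of Olfr287 and Olfr288 was not tested.

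Even without odour the pair was richer in the pulldown than in input, Olfr287 by a log2 value of 0.66 (SE 0.089) and Olfr288 by 0.43 (SE 0.13). Of the receptors tested, 12% were called higher in the pulldown in this comparison. In input the log2 fold changes of Olfr287 over No Odour were -0.11 (SE 0.095) under NCD, 0.080 (SE 0.098) under Bacon and 0.21 (SE 0.098) under HFD. Those of Olfr288 were -0.17 (SE 0.13), 0.037 (SE 0.13) and 0.22 (SE 0.13). For both genes the negative input value under NCD was positive, at 0.11 and 0.053, when libraries were scaled by their totals, so no direction is drawn from it. On that scale the input values under Bacon and HFD were 0.39 and 0.43 for Olfr287 and 0.35 and 0.43 for Olfr288. In the input comparisons 0.998%, 13.7% and 0.963% of all 20451 genes tested were called under NCD, Bacon and HFD.

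The odour profiles of the receptors were set against each other directly. Between odours, the ratio of Olfr287 differed by a log2 value of 0.095 (SE 0.12) for Bacon over NCD, 0.013 (SE 0.12) for HFD over NCD and -0.082 (SE 0.12) for HFD over Bacon. For Olfr288 the same differences were -0.20 (SE 0.17), -0.40 (SE 0.17) and -0.20 (SE 0.18). The largest of these values, that of Olfr288 for HFD over NCD, included HFD pool 6. Without that pool it was -0.27 (SE 0.17).

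The relation of the pair was also taken within each library. In the pulldown, Olfr287 exceeded Olfr288 by 2.20, 2.50, 2.24, 2.63 and 2.81 log2 units in the No Odour pools 1, 2, 3, 4 and 6. Under NCD this log2 difference was 1.94 at the lowest, 2.14 at the median and 2.62 at the highest. No Odour and NCD overlapped. It was 2.20, 2.45, 2.51, 2.49 and 2.83 in the Bacon pools 1 to 5 and 2.52, 2.63, 2.58, 2.40 and 2.68 in the HFD pools 1, 2, 3, 5 and 6. Group means of this pulldown difference were 2.48 ± 0.26 (SD, n = 5) without odour, 2.22 ± 0.26 (n = 6) under NCD, 2.49 ± 0.22 (n = 5) under Bacon and 2.56 ± 0.11 (n = 5) under HFD, NCD being lowest with ranges that overlapped in every pair of groups.

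In input the same log2 difference between the genes was 2.24 ± 0.37 (SD, n = 5) without odour, 2.32 ± 0.19 (n = 6) under NCD, 2.31 ± 0.20 (n = 5) under Bacon and 2.26 ± 0.25 (n = 5) under HFD. The pulldown-to-input ratio of Olfr287 minus that of Olfr288 was 0.23 ± 0.31 (log2, SD, n = 5) without odour, -0.098 ± 0.27 (n = 6) under NCD, 0.18 ± 0.27 (n = 5) under Bacon and 0.31 ± 0.34 (n = 5) under HFD. These differences overlapped between all groups. NCD pool 5, at 0.40, was the only NCD pool in which the ratio of Olfr287 was the higher, and HFD pool 6, at 0.81, had the largest gap of all 21 pools.

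Likeness of profile was measured as the root mean square difference of the 3 fitted log2 fold changes, over 21 pools, against all 907 other receptors tested. These fold changes are the values that chose the pair, and the genes share reads, so their likeness is a description from which nothing is read. Olfr287 and Olfr288 were 0.21 apart, where the median receptor was 0.57 from Olfr287 and 0.68 from Olfr288. Olfr288 ranked 70 of 907 by likeness to Olfr287, and Olfr287 ranked 30 of 907 by likeness to Olfr288, so neither was the closest to the other. The 5 receptors nearest to Olfr287 were Olfr212 (0.045), Olfr820 (0.051), Olfr205 (0.058), Olfr722 (0.064) and Olfr561 (0.077). Those nearest to Olfr288 were Olfr215 (0.050), Olfr1414 (0.093), Olfr979 (0.094), Olfr1260 (0.098) and Olfr1458 (0.10). Olfr212 had log2 fold changes of 0.70 under NCD, 0.73 under Bacon and 0.62 under HFD, and Olfr215 had 0.93, 0.80 and 0.64.

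Olfr286, the neighbouring receptor that shares part of its sequence with the pair, was 0.72 from Olfr287 and 0.83 from Olfr288 by this measure. It ranked 601 of 907 by likeness to Olfr287 and 615 by likeness to Olfr288, or 555 and 477 by the largest difference, with log2 fold changes of the ratio of 0.095 (SE 0.20) under NCD, -0.098 (SE 0.20) under Bacon and -0.014 (SE 0.20) under HFD. Its mean pulldown level per kb was 0.878 CPM per kb without odour and 0.893, 1.04 and 1.04 CPM per kb under NCD, Bacon and HFD, below that of Olfr288 in each group. Because Olfr286 shares reads with the pair, its values are not independent of theirs. When the 3 genes were counted as 1, an alternative added after the data were seen, the log2 fold change of the ratio was 0.68 (SE 0.11) under NCD, 0.70 (SE 0.12) under Bacon and 0.62 (SE 0.12) under HFD, a sum that does not depend on how reads were divided among the 3.

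Olfr287 took most of those joint counts. In the pulldown it held 76.2 ± 2.58% (SD, n = 5) of the counts of the 3 genes without odour, 76.7 ± 1.62% (n = 6) under NCD, 79.2 ± 2.53% (n = 5) under Bacon and 80.1 ± 1.00% (n = 5) under HFD. The part of Olfr288 was 13.6 ± 2.07%, 16.5 ± 2.49%, 14.1 ± 1.72% and 13.5 ± 0.901% in the same order, highest under NCD. The ranges of the 4 groups overlapped in these shares for Olfr287 and for Olfr288. The part of Olfr286 was 7.49 to 12.7% without odour and 5.58 to 7.43% under HFD, which did not overlap, and how estimation divided the shared reads was not tested.

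Of the 7 other receptor genes within 1 Mb of the pair, all were tested and 0 changed in the pulldown-to-input ratio under any odour by edgeR's quasi-likelihood test, where 1.87%, 3.74% and 1.32% of all receptors were called higher under NCD, Bacon and HFD. At an unadjusted p under 0.05, 0 of them passed under NCD, 1 (Olfr282, lower) under Bacon and 0 under HFD, and DESeq2 called 0 in each. Their log2 fold changes ran from -0.67 (Olfr284) to 0.14 (Olfr285) under NCD, from -0.75 (Olfr282) to 0.33 (Olfr283) under Bacon and from -0.29 (Olfr282) to 0.28 (Olfr279) under HFD. The median over the 7 neighbours was -0.18, -0.098 and -0.014 under NCD, Bacon and HFD, beside the receptor medians of 0.23, 0.29 and 0.27.

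In input 0 of the 7 neighbours changed under any odour by edgeR, with 1, 3 and 2 at an unadjusted p under 0.05 under NCD, Bacon and HFD, all of them higher, and DESeq2 called 0. Of the 7 other genes of the count table within 100 kb, 6 were tested, and Gm44579, which overlaps the pair, has no entry in that table. Of these, 1, Ccdc184, which lies between the pair and Asb8, changed in the ratio, under Bacon, where 3.78% of all genes were called. Ccdc184 rose under Bacon by a log2 value of 0.58 (SE 0.10, adjusted p = 0.000327 by edgeR's quasi-likelihood test, higher in 5 of 5 pools) and fell by 0.31 in input (SE 0.068, adjusted p = 0.000999, lower in 5 of 5 pools). The input call on Ccdc184 was kept in 4 of 21 fits without 1 pool and was lost without the filter on low counts. Scaled by library totals, the ratio of Ccdc184 no longer passed and its input value was 0.013.

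The promoters of the pair also share sequence. Windows of 250 bases before to 50 after the start, from RefSeq (GRCm38.p6), were matched for both members. The windows aligned over 236 bases with 223 identical (94.5%), and that of Olfr287 aligned with that of Olfr286 over 19 bases. The windows of Olfr287 (chr15:98221007-98221306) and Olfr288 (chr15:98195493-98195792), both read from the minus strand, are shown because of this likeness. Whether they bear on the ratios under the odours was not tested. The capitals mark the only match of CCCNNGGG, the core of the site bound by Ebf factors, which reads the same on both strands.
Olfr287: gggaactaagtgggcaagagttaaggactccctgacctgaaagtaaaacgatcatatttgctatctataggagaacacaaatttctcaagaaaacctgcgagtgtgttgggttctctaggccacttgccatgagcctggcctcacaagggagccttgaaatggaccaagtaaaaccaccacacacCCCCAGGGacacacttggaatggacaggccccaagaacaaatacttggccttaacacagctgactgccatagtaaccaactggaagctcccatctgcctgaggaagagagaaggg
Olfr288: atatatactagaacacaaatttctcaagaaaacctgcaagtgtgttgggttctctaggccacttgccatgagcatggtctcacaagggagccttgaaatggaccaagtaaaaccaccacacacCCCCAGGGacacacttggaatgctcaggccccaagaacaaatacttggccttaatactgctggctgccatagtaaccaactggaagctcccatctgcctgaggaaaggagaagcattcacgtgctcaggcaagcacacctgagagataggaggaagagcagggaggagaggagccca

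The match, CCCCAGGG, begins at position -65 from the start of Olfr287 and at -127 from that of Olfr288. The motif CCCNNGGG occurs in 4491 of all 32851 promoter windows (13.7%) and in 29 of 948 receptor windows (3.06%), on either strand, and not in that of Olfr286. TAATNA, the core of homeodomain sites, searched on both strands, has no match in the window of Olfr287 or Olfr288, and occurs in 26.5% of all promoter windows and 65.8% of receptor windows. Such matches are a description of letters, not sites, and the lack of a match says only that these letters are not in this window.

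The signalling genes downstream of receptors such as Olfr287 and Olfr288 give the setting of these ratios. Of 23 genes of odour transduction and receptor trafficking, 2 rose in the ratio under Bacon, where 3.78% of all genes were called, Omp by 0.64 (log2, SE 0.10, adjusted p = 0.000189 by edgeR, higher in 5 of 5 pools) and Gng13, a G protein subunit, by 1.33 (SE 0.24, adjusted p = 0.000614, higher in 5 of 5 pools). Under NCD 0 passed by edgeR, with 7 higher and 3 lower at an unadjusted p under 0.05, and under HFD 0 passed, with 4 higher and 4 lower. DESeq2 called 1 under each. The median log2 fold change of this list was 0.015, 0.025 and 0.00042 under NCD, Bacon and HFD, below the values of the pair. With a replicate block both calls were lost (adjusted p = 0.00128 for Omp and 0.00152 for Gng13), as was that of Omp with library totals (0.41) and that of Gng13 without the filter on low counts (adjusted p = 0.00124). In input, where 13.7% of all genes were called under Bacon, 3 genes of this list rose and 3 fell, and Omp, which fell by 0.45 (SE 0.087, adjusted p = 0.000283 by edgeR, lower in 5 of 5 pools), and Gng13, which fell by 1.17 (SE 0.22, adjusted p = 0.000390, lower in 5 of 5 pools), were among the latter. Scaled by library totals, Omp (-0.13) and Gnb1 (-0.11), another that fell, no longer passed in input.

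Of 14 genes of receptor choice, the programme that selects a receptor such as Olfr287 in each neuron, 1, the histone methyltransferase gene Ehmt2, fell by 0.42 in the ratio under HFD (log2, SE 0.076, adjusted p = 0.000782 by edgeR, lower in 5 of 5 pools), a call that 3 of 21 fits without 1 pool kept and that a replicate block (adjusted p = 0.00549) and leaving out the filter (adjusted p = 0.00199) ended. Under HFD 1.22% of all genes were called in the ratio. Under NCD 0 passed by edgeR, with 3 lower at an unadjusted p under 0.05, and under Bacon 0 passed, with 1 higher and 9 lower. DESeq2 called 0 under both. The 14 activity genes were counted in input and in the ratio. In input 5 activity genes rose under NCD, 11 rose and 1 fell under Bacon, and 5 rose under HFD by edgeR, where 0.998%, 13.7% and 0.963% of all genes were called. Fos, an immediate early gene, rose in input by 1.55 (SE 0.10, adjusted p = 6.09e-10), 1.63 (SE 0.11, adjusted p = 2.19e-10) and 1.45 (SE 0.11, adjusted p = 5.16e-09) under NCD, Bacon and HFD, and was higher than the No Odour mean in 6 of 6, 5 of 5 and 5 of 5 pools.

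In the ratio, 0 activity genes passed under NCD by edgeR, with 5 higher and 4 lower at an unadjusted p under 0.05 and 1 called by DESeq2. S100a5, a calcium-binding protein gene that follows sensory neuron activity, rose by 1.16 (SE 0.17, adjusted p = 9.08e-05, higher in 5 of 5 pools) under Bacon. It was also the activity gene that fell in input under Bacon, by 0.87 (SE 0.15, adjusted p = 0.000165, lower in 5 of 5 pools), and its ratio call was lost with the ribosomal RNA covariate and with the compared groups alone. Arc fell by 0.97 (SE 0.20, adjusted p = 0.000999, lower in 5 of 5 pools) under Bacon and by 1.12 (SE 0.20, adjusted p = 0.000604, lower in 5 of 5 pools) under HFD. In input Arc rose under Bacon, by 0.76 (SE 0.17, adjusted p = 0.000954, higher in 5 of 5 pools), a call kept in 4 of 21 fits without 1 pool. The ratio call on Arc under Bacon was kept in 1 of 21 fits without 1 pool, and a replicate block ended the calls on Arc under Bacon (adjusted p = 0.00288) and HFD (adjusted p = 0.00324). The median log2 fold change of the activity list in the ratio was 0.061, 0.038 and 0.024 under NCD, Bacon and HFD, beside 0.67, 0.76 and 0.68 for Olfr287 and 1.01, 0.82 and 0.62 for Olfr288.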

How the data were processed

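The values were estimated counts per gene of 42 libraries, which the authors deposited from Salmon on GRCm38 (their own tests used DESeq2 1.26), and 30.9% of these expected counts were not whole (to within 0.0005). They were rounded and analysed in R 4.3.3 with edgeR 4.0.16 (limma 3.58.1): a filter at a minimum count of 10, TMM scaling, and a robust quasi-likelihood fit with a term for each pool, library type and library type by odour. Input libraries were also fitted alone. The threshold was an adjusted p of 0.001. CPM were taken over library totals, and ratios used a prior count of 2. Pulldown and input were matched into a pool by the odour and replicate number of their labels, as the study divided each pulldown by its input. With group and library type removed, their median correlation was 0.0142 over 21 pools. The pairing thus rests on the labels and the study's methods, and these correlations do not show it. The median correlation of pulldowns with the same replicate number under different odours was 0.00919 over 27 pairs, so the numbers were not taken as blocks. The common biological coefficient of variation was 12%. Between libraries of a group the variance was at least 3.33 times that of counting alone (chi-square per degree of freedom, 90 pairs), so depth did not set the precision over genes as a whole. This value does not speak for Olfr288, whose relative counting error was larger than that of Olfr287.

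Alternatives were DESeq2 size factors, library totals, DESeq2 1.42.0 (with these terms, or on pulldown divided by input), no pool term, a replicate block, the compared groups alone, no filter, each pool left out, other prior counts and other measures of likeness. Named were the pair, receptors within 1 Mb, called genes within 100 kb, the 5 receptors with the nearest profile to each member, receptors that share sequence, and called genes of the transduction, receptor choice and activity lists. The members and lists were chosen with earlier results of these data known. Left out of lists by symbol were 556 genes without a name in the annotation (0.525% of counts), and the authors' annotation release was not stated.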

Additional observations from a re-analysis of the deposited data

Results flagged for a closer look

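Of 44 groups of pools examined for Olfr287, Olfr288, their summed counts with Olfr286 and the relation of the pair, 2 held a pool whose gap to its nearest neighbour, divided by the range of the group, was beyond Dixon's 95% value. Chance gives about 1 in 20 such groups. The pulldown level of Olfr288 in HFD pool 6 was 6.69 CPM, where the nearest pool of the group was at 8.41 and the median of the others was 8.83. The difference of the log2 pulldown-to-input ratios, Olfr287 minus Olfr288, was 0.40 in NCD pool 5, where the nearest pool was at -0.08 and the median of the others was -0.15. The cause of neither value was tested.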

How the results depend on the processing

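The fitted log2 fold changes of the ratio of Olfr287 and Olfr288 over No Odour were positive in each alternative run. With library totals the No Odour pools overlapped those of each odour for Olfr287, and those of Bacon and HFD for Olfr288. The NCD pools of Olfr288, from 1.04, lay above its highest No Odour pool, at 0.95. Leaving out 1 pool gave log2 fold changes of 0.62 to 0.73 under NCD, 0.70 to 0.88 under Bacon and 0.64 to 0.74 under HFD for Olfr287, and 0.93 to 1.10, 0.69 to 0.91 and 0.54 to 0.74 for Olfr288. The other alternatives that fit each gene alone gave 0.52 to 0.67, 0.53 to 0.78 and 0.56 to 0.69 for Olfr287 and 0.87 to 1.03, 0.59 to 0.84 and 0.50 to 0.64 for Olfr288. With the replicate block, Olfr287 and Olfr288 stood at 0.65 and 1.02 under NCD. The ribosomal RNA covariate and the 3 genes counted as 1 were chosen after seeing the data. The 3 genes as 1 gave 0.68 under NCD, a value of their sum, most of which is Olfr287, beside 1.01 for Olfr288 alone.

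Library totals moved the median of all genes by -0.15, -0.23 and -0.13 in the ratio under NCD, Bacon and HFD, and by 0.21, 0.33 and 0.21 in input. In input they gave Olfr288 0.053 under NCD, Olfr287 0.39 and Olfr288 0.35 under Bacon, and Ccdc184 0.013 under Bacon. Genes higher and lower in the ratio were 76 and 35 under NCD, 522 and 279 under Bacon and 148 and 110 under HFD, and with library totals 53 and 143, 167 and 1430, and 81 and 216. In input they were 117 and 87, 1107 and 1705, and 130 and 67, and with library totals 2202 and 31, 5452 and 372, and 1643 and 26.

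Receptors called higher in the ratio under NCD (17) numbered 93 at an adjusted p of 0.05, 10 with library totals, 30 by DESeq2, 38 by DESeq2 on the divided values, 10 with the replicate block and 2 with the ribosomal RNA covariate. Under Bacon (34) they numbered 119 at 0.05, 18 with library totals, 54 by DESeq2 on divided values, 4 with the compared groups alone and 5 with the covariate. Under HFD (12) they numbered 95, 7, 25 by DESeq2, 44 on divided values, 6 with the replicate block, 4 with the compared groups and 0 with the covariate. Leaving out 1 pool gave 10 to 24 under NCD (10 without No Odour pool 2 or 3), 21 to 46 under Bacon (21 without Bacon pool 2, 22 without Bacon pool 3) and 7 to 20 under HFD (20 without Bacon pool 1, 7 without HFD pool 1, 2 or 5). Without odour 109 receptors were higher in the pulldown, 173 at 0.05 and 93 to 111 without 1 pool.

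All genes called in the ratio under NCD (111) numbered 2774 at 0.05, 196 with library totals, 560 by DESeq2, 693 on divided values, 53 with the replicate block, 187 with the compared groups, 213 without the filter and 21 with the covariate. Under Bacon (801) they numbered 4768, 1597, 1823, 2106, 340 with the replicate block, 26 with the compared groups and 24 with the covariate. Under HFD (258) they numbered 3323, 868 by DESeq2, 1064 on divided values, 90 with the replicate block, 37 with the compared groups, 396 without the filter and 16 with the covariate. Leaving out 1 pool gave 56 to 335, 235 to 1566 and 96 to 524. In input 204, 2812 and 197 were called under NCD, Bacon and HFD. These became 4799, 8147 and 4436 at 0.05, 2233, 5824 and 1669 with library totals, 1262, 4320 and 1198 by DESeq2 and, under HFD, 296 without the filter, with 70 to 814, 1344 to 3578 and 70 to 693 without 1 pool.

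By the largest difference in place of the root mean square, Olfr288 ranked 120 by likeness to Olfr287, and Olfr287 ranked 49 by likeness to Olfr288. Of 21 fits of the ratio that left out 1 pool, the call was kept in 21 for S100a5, 19 for Omp (not without Bacon pool 2, 0.61, or 3, 0.58), 18 for Ccdc184 (not without Bacon pool 2, 0.54, 3, 0.50, or 5, 0.58), 14 for Gng13 (not without No Odour pool 2, 4 or 6 or Bacon pool 2, 3, 4 or 5, 1.19 to 1.39), 14 for Arc under HFD (not without No Odour pool 2 or 6 or any HFD pool, -1.15 to -1.09), 3 for Ehmt2 (without NCD pool 2 or Bacon pool 1 or 2) and 1 for Arc under Bacon (without HFD pool 2). The calls in the ratio of Ccdc184, Omp, Gng13, Ehmt2, S100a5 and Arc were all lost with the covariate and with the compared groups alone. With library totals the ratios of Ccdc184 (0.35) and Omp (0.41) and the input value of Omp (-0.13) under Bacon no longer passed. With the replicate block those of Omp, Gng13, Ehmt2 and Arc under Bacon and HFD were lost, as was that of Ascl3 under NCD. The ratio call was kept without 1 pool in 21 of 21 fits for Bpifb5 under each odour, and in 8, 19 (not without Bacon pool 2, 0.71, or 3, 0.74) and 21 for Ascl3 under NCD, Bacon and HFD. Ascl3 also lost the call under each odour with the covariate, under Bacon with the compared groups alone, and under NCD with library totals or no pool term. In input under Bacon the call was kept in 4 of 21 fits for Ccdc184, 4 for Arc, 6 for Kirrel3, 7 for Ascl3, 19 for Omp (not without Bacon pool 1 or 3) and 16 for Gng13 (not without No Odour pool 4 or Bacon pool 1, 2, 3 or 4), and under HFD in 11 for Kirrel2. The cause of these shifts was not tested.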
